A study of Mus musculus with 12 samples.

Results

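The comparison described here set ribosomes precipitated through an HA tag against an isotype control pull-down in mouse gut muscle injured 3 h earlier. It covers 6 of the 12 libraries of the series, 3 HA and 3 IgG, which came from 3 animals numbered 1, 3 and 4, with 1 library of each kind per animal. The animals carried PLPCreERT2 and Rpl22HA, the latter an allele in which Cre recombination gives ribosomal protein L22 an HA tag. All of them, and also the naive animals of the series (T0, 6 further libraries), had received 2 intraperitoneal injections of 100 μl tamoxifen at 15 mg/ml, were aged 10 to 12 weeks at the start and were used 3 to 4 weeks after the first injection. At T3 the small intestine had been handled surgically (intestinal manipulation, which inflames the muscle layer) 3 h before the muscularis was taken. Cleared homogenate of an animal was divided between the antibodies, so HA and IgG of 1 number share an animal. The Cre driver is active in enteric glia and in Schwann cells of extrinsic nerves, so a tagged ribosome need not come from a glial cell within the ganglia.

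Enteric glia are the supporting cells of the enteric nervous system, which lies within the muscle layer of the gut. They surround neurons and nerve fibres, express SOX10, S100B and GFAP, buffer ions and transmitters, and respond to injury by releasing cytokines, chemokines and growth factors. In the RiboTag method a transcript enriched with the anti-HA antibody over IgG was bound to tagged ribosomes, while transcripts of the surrounding muscle, mesenchyme and epithelium reach both pull-downs as background and should be relatively depleted. Because the values are relative within each library, fewer cells of a type and less RNA per cell cannot be told apart.

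The depth was 1221788 to 1495439 counts in HA but 88136, 92022 and 248522 in the IgG libraries of animals 1, 3 and 4, which makes the HA total of an animal 5.17 to 16.3 times its IgG total. At least 1 count was found for 12190 to 12469 genes in HA and for 8908 to 10669 in IgG. A count of 0, which allows up to 3 counts, corresponded to 2.01 to 2.46 CPM (counts of a gene per 1000000 counts of its library) in HA and to 12.1 to 34.0 CPM in IgG, counting error only. The animal 4 IgG library was both the deepest of its group and the lowest in glial transcripts. Rpl22 itself, whose counts do not separate tagged from untagged message, was at 72.0, 62.2 and 61.5 CPM in HA and 34.0, 10.9 and 28.2 in IgG (a log2 fold change of 1.42 with SE 0.45, adjusted p 0.0294, edgeR quasi-likelihood test as throughout). HA lay above IgG in each animal, but the call needed each of the HA libraries and those of IgG animals 3 and 4 (adjusted p 0.0515 to 0.0763 when one was left out).

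With an adjusted p under 0.05, 1578 of 7200 genes (21.9%) were called different between the pull-downs, 846 (11.8%) higher and 732 (10.2%) lower in HA. The median absolute log2 fold change of the called genes was 1.71, and the sign was the same in all 3 animals for 1507 of them. As these genes were called from the same libraries, that agreement is not separate support. The 3 HA values lay wholly above the 3 IgG values for 1396 genes (19.4%) and wholly below for 1184 (16.4%), and the groups overlapped for 4620 (64.2%). A log2 fold change of at least 2 was reached by 349 genes higher in HA, and one of -2 or less by 207 genes lower in HA, while the median over all genes tested was 0.02. The call count was 849, 971 and 1019 without HA animals 4, 1 and 3, and 958 without IgG animal 4, when the split was 633 higher and 325 lower. With total counts as scaling it was 717 higher and 837 lower, so which direction prevailed depended on the setting.

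**Figure D1:**
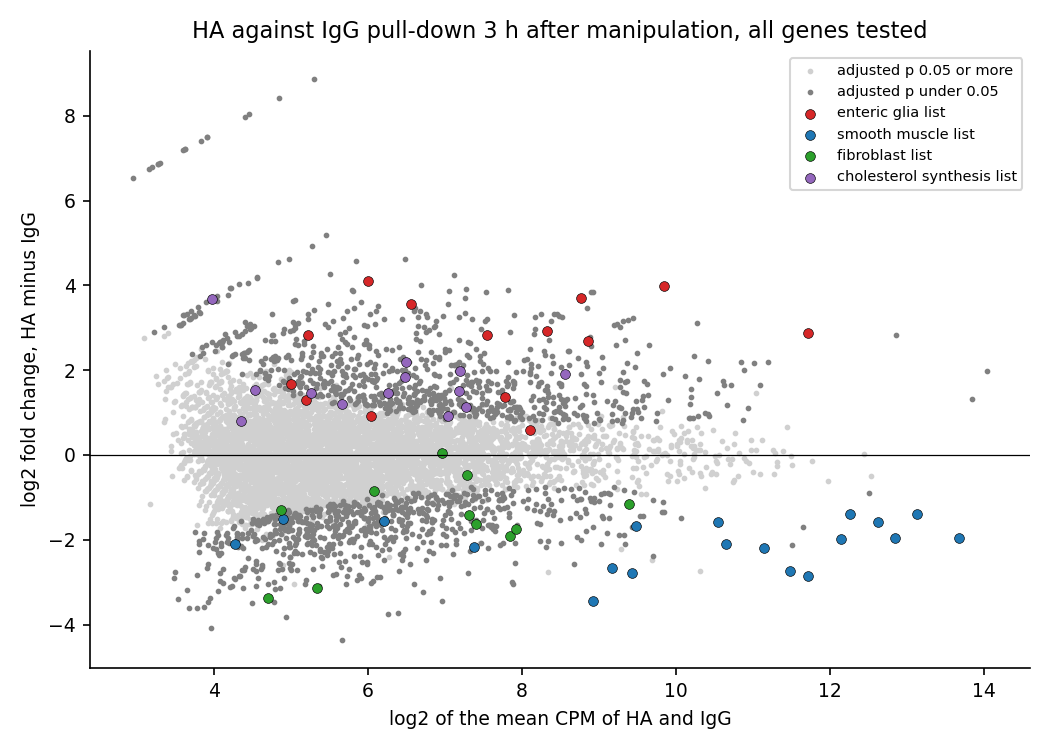
Each point is 1 of the 7200 genes tested, with the log2 of the mean CPM of both pull-downs on the x axis and the log2 fold change of HA over IgG on the y axis. The glial list (red) lies above 0, the smooth muscle list (blue) lies below 0 at high levels, and the separate band above 6 holds genes without any IgG count, whose fitted values are not sizes of an effect.

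Genes that mark enteric glia were enriched on tagged ribosomes. Gfap, the intermediate filament of glia (GRCm38/mm10, chromosome 11, 102887336 to 102900912), was at 1515, 1672 and 1959.7 CPM in the HA libraries of animals 1, 3 and 4 and at 113, 141 and 101 in IgG (a log2 fold change of 3.98 with SE 0.31, adjusted p 6.54e-07). S100b, a calcium-binding protein of glia, was at 959, 713 and 706 CPM in HA and 147, 76.1 and 16.1 in IgG (a log2 fold change of 3.70 with SE 0.47, adjusted p 4.79e-05). Every HA value of both genes exceeded every IgG value, and for S100b the IgG value of animal 4 was far below the other two. Sox10, the transcription factor that maintains the glial lineage, was at 198, 338 and 414 CPM in HA and 68.1, 76.1 and 24.1 in IgG (a log2 fold change of 2.83 with SE 0.42, adjusted p 0.000144). Foxd3, another lineage factor, was at 147, 201 and 151 CPM in HA and 45.4, 21.7 and 0 in IgG (a log2 fold change of 3.56 with SE 0.58, adjusted p 0.000311). Both were low in IgG, with Foxd3 at 0 in animal 4. Gpr37l1, an orphan receptor of glia (2.70, adjusted p 0.000279), Entpd2, an ectonucleotidase that degrades extracellular ATP (2.92, adjusted p 0.00289), and Sox2 (2.83, adjusted p 0.00141) were also higher in HA on the log2 scale. Sfrp5, a secreted WNT inhibitor, had 479 counts over the 3 HA libraries and 3 over the IgG libraries, a ratio of 17.1 after scaling (95% interval 5.82 to 83.2, counting error only).

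Of 14 tested genes of the enteric glia list, 9 were called higher and 0 lower, against 11.8% and 10.2% of all genes tested. The list had a median log2 fold change of 2.83. Within an animal, the median log2 ratio of HA to IgG over the list was 1.94 for animal 1, 2.35 for animal 3 and 3.72 for animal 4, the animal with the deepest IgG library. When only that IgG library was kept, the median was 4.03 and all 14 genes were called, against 13 without IgG animal 1 and 7 with HA counts thinned to the IgG depth. Ednrb, the endothelin receptor of neural crest derivatives, illustrates the spread, with 85.1, 80.2 and 70.9 CPM in HA and 125, 10.9 and 24.1 in IgG (a log2 fold change of 0.91 with SE 0.50, adjusted p 0.208). Its IgG values lay on both sides of the HA values. Fabp7 (1.29, adjusted p 0.125), Kcna1 (1.67, adjusted p 0.0804) and Scn7a (0.59, adjusted p 0.544) did not pass either, and Cdh19 was too low to be tested. Fabp7, Kcna1 and Ednrb passed without IgG animal 1, and all 4 passed with only IgG animal 4 or without a filter on low counts.

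**Figure D2:**
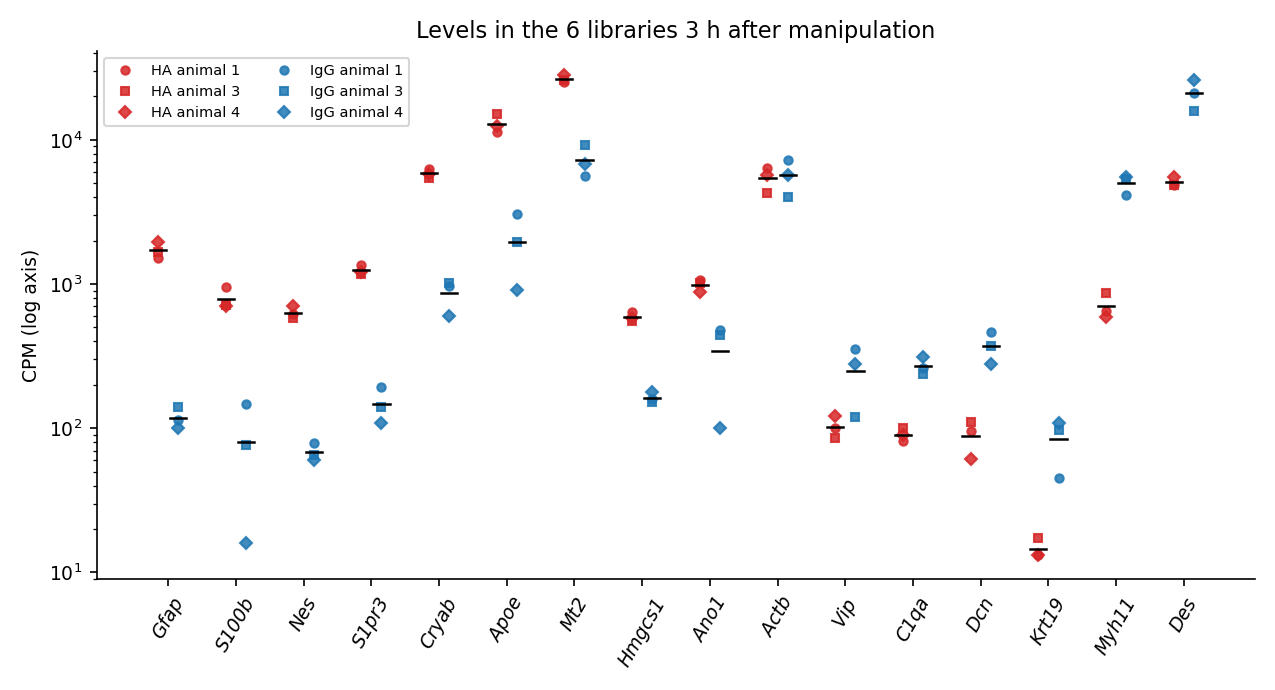
CPM on a log axis of 16 genes in the 6 libraries 3 h after manipulation, with HA in red, IgG in blue, a symbol for each animal and a bar for the group mean. Glial, metallothionein, sterol and Cajal cell genes lie higher in HA, Actb lies at about the same level in both, and muscle, mesenchymal, macrophage and epithelial genes lie higher in IgG.

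Schwann cell and myelin genes were enriched along with the glial markers, with a median log2 fold change of 1.99. Of 12 tested, 8 were higher and 0 lower, against 11.8% and 10.2% of all genes tested. Mbp, myelin basic protein, was at 711, 636 and 551 CPM in HA and 102, 130.4 and 20.1 in IgG (a log2 fold change of 3.28 with SE 0.42, adjusted p 4.45e-05). Lgi4, a secreted ligand needed for myelination of peripheral axons (3.25, adjusted p 1.16e-05), Cmtm5 (3.26, adjusted p 1.61e-05) and the adhesion molecule Ncam1 (2.98, adjusted p 3.26e-05, but 0.105 when all 12 libraries were fitted together) were higher in HA. The summed level of the list was 2582 to 3265 CPM in HA and 386 to 1033 in IgG. Of the 10 genes of the progenitor list, 7 were in the data and only 3 were high enough to be tested. Beside 11.8% of all genes tested, all 3 of these were higher. They were Nes, the neural stem cell filament nestin (chromosome 3, 87971078 to 87980451), at 619, 578 and 699.9 CPM in HA and 79.4, 65.2 and 60.4 in IgG (a log2 fold change of 3.33 with SE 0.32, adjusted p 3.06e-06), Ngfr, the low-affinity neurotrophin receptor (2.72, adjusted p 1.61e-05), and Ets1 (1.89, adjusted p 0.00947, 0.109 without IgG animal 4).

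Genes that mark cells other than glia were also among the enriched transcripts. Ano1, the chloride channel of interstitial cells of Cajal, the pacemaker cells of the gut, was at 1058, 1014 and 877 CPM in HA and 477, 446 and 101 in IgG (a log2 fold change of 1.73 with SE 0.40, adjusted p 0.00494). Kit, the receptor that marks the same cells, was at 462, 379 and 281 CPM in HA and 249.6, 228 and 64.4 in IgG (a log2 fold change of 1.31 with SE 0.38, adjusted p 0.019). For both genes the HA values exceeded all IgG values and IgG animal 4 was the lowest. Kit passed in 11 of 16 alternatives and was not called without HA animals 1 or 3 or IgG animal 4 (adjusted p 0.110, 0.0743 and 0.0633). In total 3 of 4 tested genes of that list were higher, against 11.8% of all genes tested. The third was Thbs4 (2.04, adjusted p 0.0154), with adjusted p 0.0600 and 0.115 without HA animal 3 and IgG animal 4. The summed level of the list was 1399 to 1780 CPM in HA and 382 to 1163 in IgG. Of the endothelial list only 2 of 12 genes were high enough to be tested. Eng, a TGF-β co-receptor of endothelium, was at 309, 383 and 368 CPM in HA and 136, 152 and 88.5 in IgG (a log2 fold change of 1.67 with SE 0.30, adjusted p 0.000564), while Cldn5 did not pass (1.71, adjusted p 0.143). The part of Cre activity in such cells was not tested.

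Enteric neuron genes were mostly at lower fitted values in HA. Of 21 tested, 1 was higher and 5 were lower, against 11.8% and 10.2% of all genes tested, and 17 had a negative log2 fold change (median -0.44). No gene of the list was called lower without IgG animal 4, and 9 were without IgG animal 3. Within animals 1, 3 and 4 the median log2 ratio was -0.83, 0.15 and -0.29. Their summed level of 3880 to 6162 CPM in HA overlapped the 3803 to 6740 CPM in IgG. Gap43, a growth cone protein found in neurons and in reactive glia, was the gene higher in HA, at 273, 312 and 298 CPM against 136, 86.9 and 173 in IgG (a log2 fold change of 1.16 with SE 0.30, adjusted p 0.00855). It lost its call when HA counts were thinned to the IgG depth (adjusted p 0.0909). Vip, a neuropeptide of inhibitory motor neurons, was at 101, 85.6 and 121 CPM in HA and 352, 119.5 and 278 in IgG (a log2 fold change of -1.23 with SE 0.32, adjusted p 0.0104). Snap25, of the synaptic release machinery, was at 35.2, 22.7 and 34.3 CPM in HA and 182, 21.7 and 149 in IgG (a log2 fold change of -1.93 with SE 0.44, adjusted p 0.00427), and Syt1, its vesicle calcium sensor, had a log2 fold change of -1.98 (adjusted p 0.00839). IgG animal 3 lay well below the other IgG libraries for both Vip and Snap25, and the groups overlapped there. Without IgG animal 4 all 3 calls were lost (adjusted p 0.124 for Vip, 0.122 for Snap25 and 0.445 for Syt1), and that of Vip also without HA animal 1 (0.0522) or IgG animal 1 (0.0614).

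Smooth muscle genes had the highest summed level of all marker lists in IgG and were depleted from tagged ribosomes. Against 10.2% lower and 11.8% higher among all genes tested, 17 of 19 tested smooth muscle genes were lower and 0 higher. Their median log2 fold change was -1.97, with 14 to 20 called lower over the alternatives. Their summed level was 22437 to 26232 CPM in HA and 75113 to 106928 in IgG, so that they still made up a sizeable share of the HA libraries. Myh11, the smooth muscle myosin heavy chain (chromosome 16, 14194535 to 14291372), was at 654, 867 and 589 CPM in HA and 4130.0, 5379 and 5549 in IgG (a log2 fold change of -2.74 with SE 0.28, adjusted p 3.61e-06). Des, the muscle filament desmin, was the most abundant transcript in IgG at 21194, 15768 and 25969.5 CPM and was at 4888, 4896 and 5499 in HA (a log2 fold change of -1.96 with SE 0.27, adjusted p 7.25e-05). No HA value of these genes reached an IgG value. Tpm1, Smtn and Cnn1, which regulate actin filaments of the contractile apparatus, were lower by similar amounts (-1.96, -2.10 and -1.97; adjusted p 3.76e-05, 5.46e-05 and 0.000151). Myl9, the regulatory myosin light chain (4034, 4974 and 5168 CPM in HA and 12084, 11617 and 15866 in IgG), had a smaller difference (a log2 fold change of -1.39 with SE 0.26, adjusted p 0.000859). Outside the list, Myom1, which links myosin filaments, was lower too, with 33.6, 62.9 and 44.4 CPM in HA and 295, 630.3 and 354 in IgG (a log2 fold change of -3.05 with SE 0.32, adjusted p 5.56e-06).

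The windows around the annotated starts of Myl9 and Myom1 are shown because both hold a CArG box, the element bound by serum response factor in contractile genes (CC, 6 bases of A or T, GG, searched on both strands and printed in capitals). They are RefSeq sequences of GRCm38.p6 from 250 bases before to 50 bases after the start, 5′ to 3′ on the plus strand. Myl9 lies at chr2:156775214-156775513 and Myom1 at chr17:71019307-71019606, and their RefSeq starts lie 7 and 3 bases from a Gencode transcript start.
Myl9: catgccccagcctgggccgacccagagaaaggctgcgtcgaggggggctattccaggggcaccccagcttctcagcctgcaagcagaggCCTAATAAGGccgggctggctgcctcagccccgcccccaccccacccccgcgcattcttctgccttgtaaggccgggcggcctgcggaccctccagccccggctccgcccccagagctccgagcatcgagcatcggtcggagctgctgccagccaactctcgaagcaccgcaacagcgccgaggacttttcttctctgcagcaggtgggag
Myom1: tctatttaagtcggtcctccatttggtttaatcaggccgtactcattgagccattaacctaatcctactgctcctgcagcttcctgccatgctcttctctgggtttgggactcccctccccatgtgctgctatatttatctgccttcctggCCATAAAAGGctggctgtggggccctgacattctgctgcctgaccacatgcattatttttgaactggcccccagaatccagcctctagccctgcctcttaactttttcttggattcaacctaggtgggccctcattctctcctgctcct
A CArG box was found in 2.35% of 554 genes called lower with a window, in 1.14% of 613 called higher, in 1.44% of 5552 tested genes and in 1.57% of all 27018 symbols with a window of the same length. These shares are given as a description, with no test.

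Other populations of the gut wall were depleted as well, beside 10.2% of all genes tested that were lower in HA. Of 11 fibroblast genes 6 were lower and 0 higher (median -1.41), among them Dcn, the matrix proteoglycan decorin (94.9, 111 and 60.7 CPM in HA, 465, 369 and 278 in IgG; a log2 fold change of -1.92 with SE 0.29, adjusted p 0.000173), Dpt (-1.75, adjusted p 9.49e-05), Lum (-3.14, adjusted p 0.000223) and the receptor Pdgfra (-3.36, adjusted p 0.0019). Of 14 epithelial genes 10 were lower and 0 higher (median -2.23), including the keratin Krt19 (13.1, 17.4 and 13.2 CPM in HA, 45.4, 97.8 and 109 in IgG; a log2 fold change of -2.52 with SE 0.41, adjusted p 0.000268), the goblet cell mucin Muc2 (-3.09, adjusted p 0.000362) and Phgr1 (-3.00, adjusted p 0.000692). Of 11 macrophage genes 4 were lower and 0 higher (median -0.94). C1qa, a complement subunit made by resident macrophages, was at 81.0, 99.6 and 89.5 CPM in HA and 261, 239 and 314 in IgG (a log2 fold change of -1.53 with SE 0.27, adjusted p 0.000526), and it was the one of the 4 that passed in each alternative. C1qb, Lyz2 and Cd74 passed in 9 of 14, 6 of 16 and 6 of 16 alternatives, and each was lost without HA animal 1, HA animal 4 or IgG animal 4 (adjusted p 0.115, 0.188 and 0.197 without the last). Of 6 adipocyte genes 4 were lower (median -1.59), led by Plin4, a coat protein of lipid droplets (-2.32, adjusted p 0.000173). The single tested mesothelial gene, Msln, was lower (-3.05, adjusted p 0.00104; 0.131 without IgG animal 4), as was Jchain of plasma cells (-2.08, adjusted p 0.00687; 0.0618, 0.0510 and 0.0829 without IgG animal 1, HA animal 4 and IgG animal 4). Of 5 neutrophil and monocyte genes the decoy receptor Il1r2 was lower (-2.68, adjusted p 0.00656; 0.0748 without IgG animal 1). No pancreatic acinar or erythroid gene was high enough to be tested. Acinar genes summed to 213 CPM in IgG and 36.6 CPM in HA of animal 4, and to at most 0.82 CPM in the other 4 libraries, so animal 4 stood apart in these as well. Their part in the results was not tested.

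**Figure D3:**
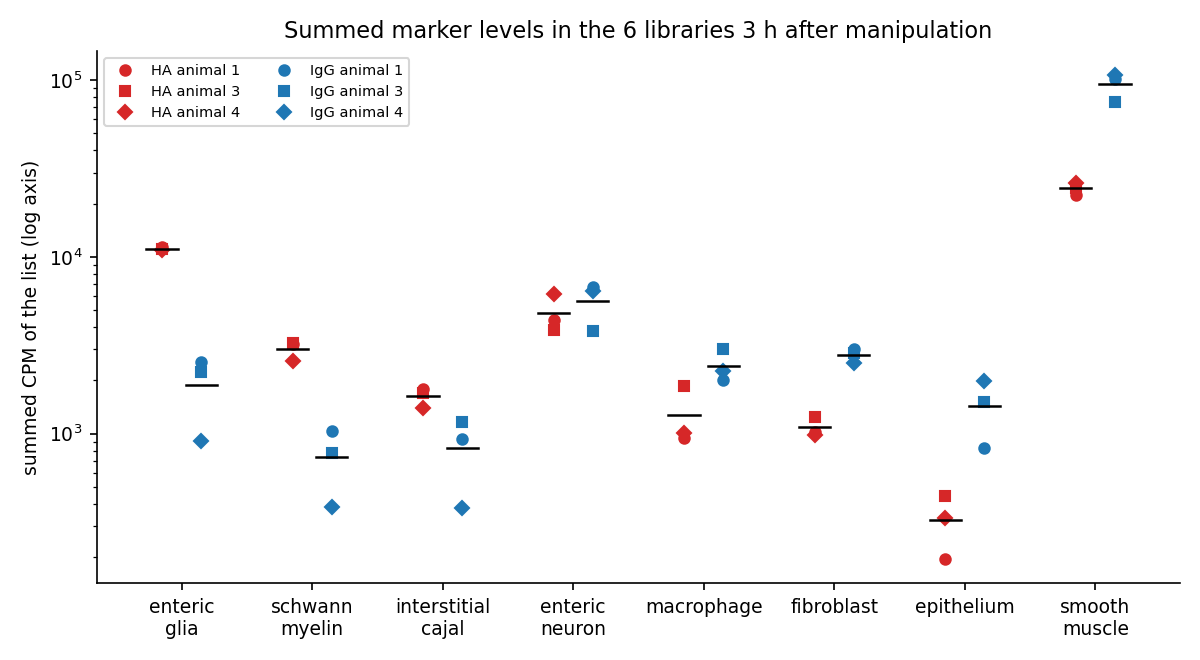
Summed CPM of each marker list on a log axis, with 1 point per library, HA in red, IgG in blue and a bar for the group mean. Glial and Schwann cell sums are higher in all 3 HA libraries, Cajal cell sums are higher as well, neuronal sums overlap, and the fibroblast, epithelial, macrophage and smooth muscle sums are lower in all 3 HA libraries.

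Beyond the markers, the genes with the smallest p-values among those higher in HA included matrix, complement and membrane genes. Col18a1, a basement membrane collagen and the precursor of endostatin, was at 1011, 1345 and 1207 CPM in HA and 102, 196 and 125 in IgG (a log2 fold change of 3.19 with SE 0.31, adjusted p 3.06e-06). Col9a2, a chain of collagen IX best known from cartilage, was at 807, 956 and 865 CPM in HA and 113, 86.9 and 28.2 in IgG (a log2 fold change of 3.84 with SE 0.38, adjusted p 3.20e-06). C4b, complement component C4, was at 1352, 1179.6 and 885 CPM in HA and 170.2, 119.5 and 125 in IgG (a log2 fold change of 3.15 with SE 0.31, adjusted p 3.19e-06). In all 3 genes each HA value was several times the IgG values. Cadm4, an adhesion molecule of glia and Schwann cells (3.09, adjusted p 3.20e-06), Galnt16, an enzyme that starts O-glycosylation (3.89, adjusted p 3.06e-06), Gas7 (3.33, adjusted p 3.06e-06) and the membrane protease Tmprss5 (3.84, adjusted p 3.06e-06) belonged to the same group. All of these, chosen for small p-values and for no overlap, stayed past the threshold in every alternative in which they were tested.

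Among genes lower in HA, several outside the contractile apparatus were among those with the smallest p-values. Fn1, the matrix protein fibronectin, was at 95.8, 138 and 97.3 CPM in HA and 522, 956 and 644 in IgG (a log2 fold change of -2.57 with SE 0.29, adjusted p 1.06e-05). Piezo1, a mechanically gated cation channel (chromosome 8, 122481698 to 122551329), was at 20.5, 34.1 and 23.4 CPM in HA and 147, 359 and 153 in IgG (a log2 fold change of -2.89 with SE 0.36, adjusted p 3.04e-05). Mgam, the brush border enzyme maltase-glucoamylase, was at 1.64, 5.35 and 7.01 CPM in HA and 56.7, 97.8 and 137 in IgG (a log2 fold change of -4.36 with SE 0.50, adjusted p 1.19e-05). The naming rule took only genes without overlap here, so their separation in all 3 animals followed from the choice. Ptgs1, the constitutive cyclooxygenase (-2.26, adjusted p 4.40e-05), Aoc3, a vascular amine oxidase (-2.57, adjusted p 5.01e-05), Pcp4, a calmodulin regulator (-2.11, adjusted p 3.76e-05), and Stambpl1, a deubiquitinase (-3.04, adjusted p 1.13e-05), followed.

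Genes that act at the cell surface were then taken by role, to see which receptor messages were enriched on tagged ribosomes in injured tissue. Of 16 tested receptors, 6 were higher and 1 lower, against 11.8% and 10.2% of all genes tested, and the median was 0.88. S1pr3, a receptor for sphingosine 1-phosphate (chromosome 13, 51408639 to 51422797), was at 1355, 1169 and 1215 CPM in HA and 193, 141 and 109 in IgG (a log2 fold change of 3.23 with SE 0.31, adjusted p 3.06e-06). Gfra1, the co-receptor for GDNF, was at 527, 534 and 394 CPM in HA and 125, 109 and 24.1 in IgG (a log2 fold change of 2.85 with SE 0.41, adjusted p 0.000101). Lpar1, a receptor for lysophosphatidic acid, was at 853, 819.8 and 714 CPM in HA and 249.6, 185 and 52.3 in IgG (a log2 fold change of 2.56 with SE 0.39, adjusted p 0.000183). These 3, taken for their small p-values in this comparison, had every HA value above every IgG value, with IgG lowest in animal 4. Of the 16 tested, 9 were not called. The bile acid receptor Gpbar1 was higher too (2.95, adjusted p 0.00134). The receptor median turned to -0.08 and -0.07 without HA animals 1 and 3, fits in which fewer genes were tested.

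Of 14 ion channels and transporters, 7 were higher and 2 lower, against 11.8% and 10.2% of all genes tested. Their median was 1.28. Kcna6, a voltage-gated potassium channel, was at 304, 247 and 294 CPM in HA and 113, 86.9 and 36.2 in IgG (a log2 fold change of 2.14 with SE 0.35, adjusted p 0.000317). Atp1b2, a β subunit of the sodium pump typical of glia (1.67, adjusted p 0.0024), and the hemichannel Panx1 (1.39, adjusted p 0.00527) were higher.

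**Figure D4:**
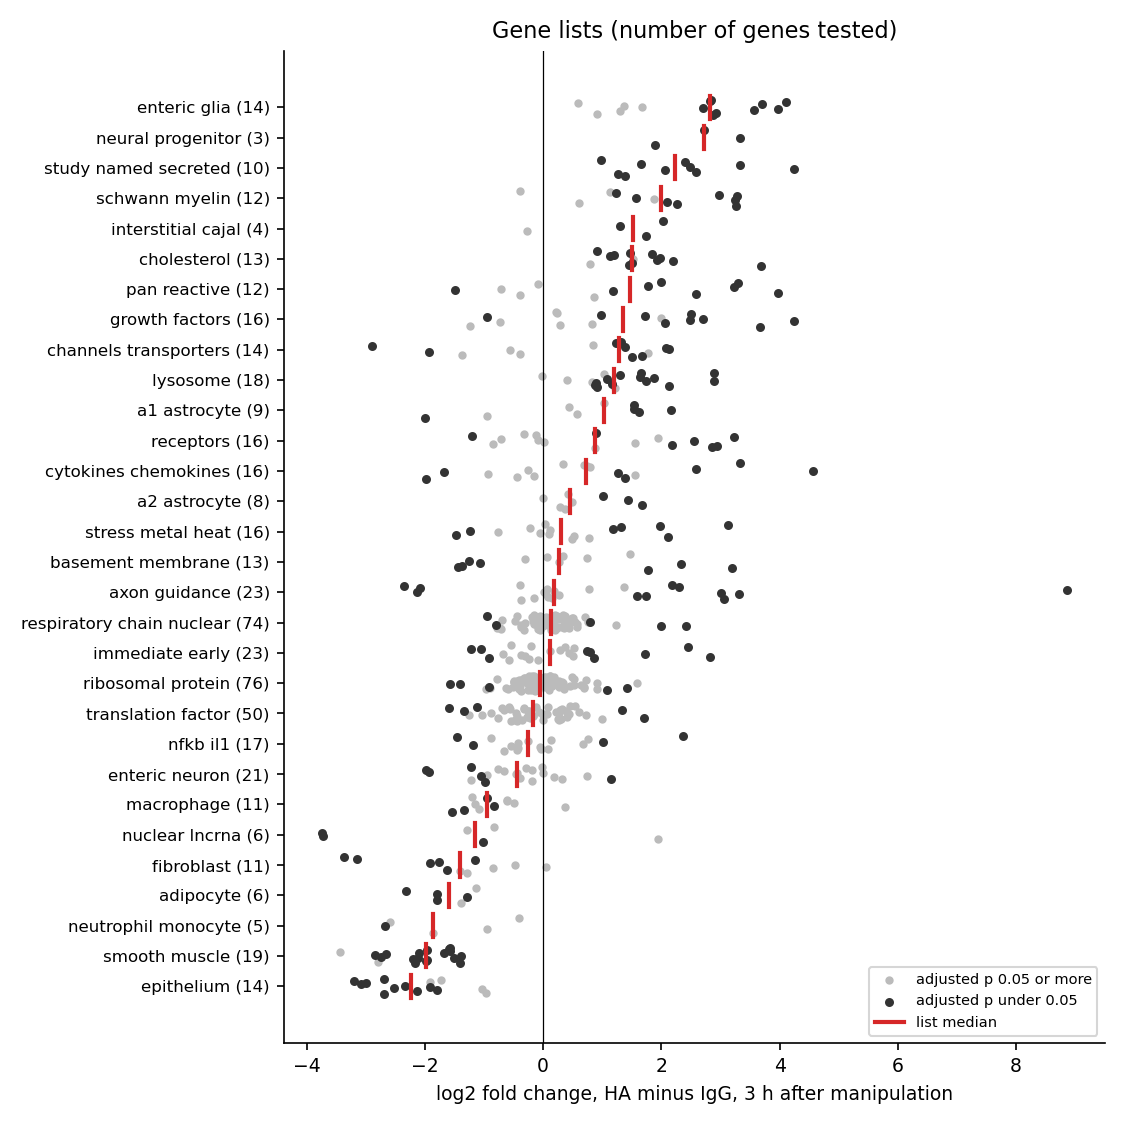
Log2 fold change of HA over IgG for the tested genes of each list with at least 3 tested, with the number tested in parentheses, dark points past the threshold, pale points not past it and a red bar for the list median. Of these, glial and progenitor lists have the highest medians and epithelial and smooth muscle lists the lowest, while ribosomal, respiratory chain and translation lists are centred near 0.

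Axon guidance genes differed by member. Of 23 tested, 8 were higher and 3 lower, against 11.8% and 10.2% of all genes tested. The median was 0.18 in the fit but 1.11, 1.05 and 0.66 for the log2 ratios within animals 1, 3 and 4, and it reached 1.77 with thinned HA counts and the animal as a block, when fewer genes were tested. Sema4b, a membrane semaphorin (chromosome 7, 80186841 to 80226527), was at 63.8, 86.3 and 85.6 CPM in HA and had 0 counts in each IgG library, which makes it at least 11.3-fold higher in HA against the floor of 6.998 CPM that 3 counts over the pooled IgG libraries give. Slit3, a secreted repellent for axons, was at 419.9, 330.3 and 315 CPM in HA and 79.4, 174 and 36.2 in IgG (a log2 fold change of 2.19 with SE 0.39, adjusted p 0.000549). Ephb2, an ephrin receptor, was at 121, 113 and 99.7 CPM in HA and 0, 21.7 and 16.1 in IgG (a log2 fold change of 3.06 with SE 0.50, adjusted p 0.000296). For all 3 the HA libraries stood above IgG, and Slit3 was highest in IgG animal 3. Plxnb3, a semaphorin receptor of glia, was at 115, 148 and 81.0 CPM in HA and was at or under 3 counts in each IgG library (22.7, 21.7 and 4.02 CPM).

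The window of Plxnb3 is shown because it held 3 matches to the short motif of SOX factors such as SOX10 (ACAAAG or ACAATG, on either strand, in capitals). It is the RefSeq sequence on the plus strand of chrX:73756853-73757152 in GRCm38.p6, with a RefSeq start 4 bases from a Gencode transcript start. That of Cadm4, at chr7:24481773-24482072 on the plus strand, held 1 match.
Plxnb3: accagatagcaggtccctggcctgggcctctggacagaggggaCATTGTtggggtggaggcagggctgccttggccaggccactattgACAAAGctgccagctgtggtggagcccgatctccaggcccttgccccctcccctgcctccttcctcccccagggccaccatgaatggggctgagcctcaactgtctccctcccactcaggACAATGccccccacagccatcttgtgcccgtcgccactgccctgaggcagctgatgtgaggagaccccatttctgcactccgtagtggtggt
Cadm4: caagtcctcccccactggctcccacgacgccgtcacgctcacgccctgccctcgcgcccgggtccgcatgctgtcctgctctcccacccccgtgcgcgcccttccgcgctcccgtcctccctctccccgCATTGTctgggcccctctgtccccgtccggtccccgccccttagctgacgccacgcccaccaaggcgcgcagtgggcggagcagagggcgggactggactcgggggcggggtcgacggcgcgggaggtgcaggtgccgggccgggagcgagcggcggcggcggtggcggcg
The motif was found in 19.2% of windows of genes called higher, in 16.1% of those called lower, in 17.6% of tested genes and in 28.8% of all symbols with a window, and in 22.6% of 252 genes with a log2 fold change of at least 2. Windows of tested genes held 62.1% G and C, against 53.6% over all symbols. No test was made of these shares, and no window was at hand for Sox10.

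Several abundant HA transcripts had few counts in the shallower control pull-down. The genes given here were chosen for few IgG counts, so a high ratio followed from the choice and is not separate support. Of genes with 3 counts or fewer over the 3 IgG libraries together, the most abundant in HA was Pcdh1, a protocadherin, at 166, 167 and 178 CPM in HA, with 682 counts over HA and 3 over IgG (ratio 24.4, 95% interval 8.30 to 118). At or under 3 counts in each IgG library were also Lrrn2 (187, 193 and 149 CPM in HA), Smoc1, a secreted calcium-binding matrix protein (205, 156 and 151), Rasgef1c (149.8, 112 and 124) and the transporter Abca8a (94.9, 192 and 98.1). Pcdh1 was even across the animals, while Abca8a was highest in animal 3. Gfra3, a co-receptor for artemin, had 0 counts in IgG and was too low to be tested.

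Messages of secreted signals on tagged ribosomes were asked about next. Of 16 cytokine and chemokine genes, 5 were higher and 2 lower, against 11.8% and 10.2% of all genes tested. Their median was 0.72. Lif, a cytokine of the IL-6 family induced in nerve injury, was at 184, 158 and 254 CPM in HA and 22.7, 0 and 28.2 in IgG (a log2 fold change of 3.34 with SE 0.48, adjusted p 9.93e-05). Cxcl10, a chemokine for T cells, was at 879, 1456 and 684 CPM in HA and 284, 174 and 113 in IgG (a log2 fold change of 2.58 with SE 0.37, adjusted p 9.49e-05). Both were higher in HA in every animal, and animal 3 had the most Cxcl10 in HA. Ccl2, which recruits monocytes, was at 903, 1537 and 769 CPM in HA and 647, 446 and 269.6 in IgG and showed the same high value in HA animal 3, without which it was no longer called (adjusted p 0.0822). Cx3cl1, the membrane-bound chemokine fractalkine, had 1 count over the IgG libraries and 63.8, 44.8 and 59.2 CPM in HA (ratio 23.7, 95% interval 4.21 to 939).

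Of 16 tested growth factors, 8 were higher and 1 lower, against 11.8% and 10.2% of all genes tested, and the median was 1.35. Gdf15, a stress-induced cytokine of the TGF-β family (chromosome 8, 70629393 to 70632456), was at 319, 243 and 217 CPM in HA and at or under 3 counts in each IgG library (22.7, 21.7 and 8.05 CPM). Gdnf, the glial factor that supports enteric neurons and signals through GFRA1, was at 215, 255 and 375 CPM in HA and 79.4, 54.3 and 40.2 in IgG (a log2 fold change of 2.49 with SE 0.37, adjusted p 0.000138). Hbegf, a ligand of the EGF receptor, was at 562, 514 and 572 CPM in HA and 182, 86.9 and 40.2 in IgG (a log2 fold change of 2.71 with SE 0.38, adjusted p 8.75e-05). HA values of all 3 were well above IgG, with Gdnf highest in HA animal 4. Cyr61, a matricellular protein, was the most abundant of the group at 1755, 1517 and 1334 CPM in HA and 454, 478 and 278 in IgG (a log2 fold change of 2.06 with SE 0.29, adjusted p 7.25e-05). All 10 tested factors that the study itself picked out were higher, with a median of 2.23. The study drew on these same samples when choosing them, so the list is not independent evidence. It compared immunoprecipitates at 3 h with naive ones among HA-enriched genes. For some factors it had other data, such as Ccl2 and Csf1 mRNA in isolated ganglia. Without HA animal 3 only 7 of the 10 factors were called. Tgfb1, which was close to the threshold, was lost in 8 of 14 alternatives, including both other scalings (adjusted p 0.0536 and 0.0782) and the fits without HA animals 3 and 4 and IgG animals 1 and 4 (0.0582 to 0.167). Csf1 was lost in 4 of 16, including the fits without HA animals 1 and 3 (0.0527 and 0.0570).

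Response genes were split between the pull-downs. Of 23 immediate early genes 6 were higher and 3 lower (median 0.11), and of 17 NF-κB and IL-1 response genes 2 were higher and 2 lower (median -0.25), against 11.8% higher and 10.2% lower over all genes tested. The summed level of immediate early genes was 9273 to 10417 CPM in HA and 8498 to 8680 in IgG, and that of NF-κB genes, 6339 to 6923 CPM in HA, overlapped the 5344 to 8096 CPM in IgG. Within these lists single members differed. Fosl1, an AP-1 subunit, was at 343, 477 and 557 CPM in HA and 136, 174 and 137 in IgG (a log2 fold change of 1.73 with SE 0.30, adjusted p 0.000431). Myc (2.45, adjusted p 0.00276) and Egr2, a factor of the myelination programme (2.83, adjusted p 0.00457), were also higher. Egr2 had 193 counts over the HA libraries and 3 over the IgG libraries, so its size rests on few IgG counts. Klf4 was lower (-1.21, adjusted p 0.00485; 0.0790 when all 12 libraries were fitted together), as was Tnip1, which restrains NF-κB signalling (-1.46, adjusted p 0.00531).

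Stress genes held the most abundant messages of the HA libraries. Of 16 tested, 5 were higher and 2 lower, against 11.8% and 10.2% of all genes tested, and the median was 0.31. Mt2, a metallothionein that binds zinc and copper, was at 24999, 26132 and 28272 CPM in HA and 5594, 9269.5 and 6824 in IgG (a log2 fold change of 1.98 with SE 0.26, adjusted p 4.53e-05), and its paralog Mt1 was at 19552, 20165 and 22125 and 7636, 9498 and 9492 (a log2 fold change of 1.31 with SE 0.25, adjusted p 0.000859). Cryab, a small heat shock protein that also counts in the glial list, was at 6284, 5481 and 5771 CPM in HA and 976, 1011 and 599.5 in IgG (a log2 fold change of 2.88 with SE 0.28, adjusted p 3.06e-06). These 3 were among the 4 most abundant messages in HA, the other being Apoe, a lipid carrier (11369, 15024 and 12428 CPM in HA and 3052, 1945 and 913 in IgG; a log2 fold change of 2.84 with SE 0.35, adjusted p 3.26e-05). Srxn1, sulfiredoxin, which restores oxidised peroxiredoxins (chromosome 2, 152105516 to 152111376), was at 1956, 2007 and 2607 CPM in HA and 431, 228 and 177 in IgG (a log2 fold change of 3.12 with SE 0.33, adjusted p 6.83e-06). Gadd45g was lower (575, 507 and 543 CPM in HA and 1271, 1771 and 1787 in IgG; a log2 fold change of -1.48 with SE 0.26, adjusted p 0.000538) while its paralog Gadd45a was higher (2.12, adjusted p 0.000279).

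The start of Srxn1 is shown with that of Ezr because both held the AP-1 element TGANTCA (searched on both strands, in capitals), 2 matches in Srxn1 and 1 in Ezr. The windows are RefSeq sequences of GRCm38.p6, chr2:152105274-152105573 on the plus strand for Srxn1 and chr17:6782731-6783030 on the minus strand for Ezr, each 5′ to 3′ on the strand of the gene.
Srxn1: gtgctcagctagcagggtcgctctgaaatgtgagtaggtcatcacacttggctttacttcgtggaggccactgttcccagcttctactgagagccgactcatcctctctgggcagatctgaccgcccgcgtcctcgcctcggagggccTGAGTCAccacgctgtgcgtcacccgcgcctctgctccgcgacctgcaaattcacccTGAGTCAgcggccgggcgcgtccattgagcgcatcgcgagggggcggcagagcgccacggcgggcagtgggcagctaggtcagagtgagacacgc
Ezr: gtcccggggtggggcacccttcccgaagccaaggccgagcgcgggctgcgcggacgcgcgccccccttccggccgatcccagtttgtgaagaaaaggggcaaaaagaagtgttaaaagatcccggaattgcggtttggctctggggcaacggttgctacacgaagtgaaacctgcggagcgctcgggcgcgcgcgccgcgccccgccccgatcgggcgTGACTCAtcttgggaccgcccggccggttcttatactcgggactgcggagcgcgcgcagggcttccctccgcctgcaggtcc
The element was found in 6.53% of windows of genes called higher, in 4.87% of those called lower, in 4.57% of tested genes and in 7.94% of all symbols with a window, again without a test.

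Gene lists from research on reactive astrocytes, which are glia of the brain, gave 7 of 12 pan-reactive genes higher and 1 lower (median 1.48), 4 of 9 A1 genes higher and 1 lower (1.04), and 3 of 8 A2 genes higher and 0 lower (0.46). Over all genes tested, 11.8% were higher and 10.2% lower. Timp1, an inhibitor of metalloproteinases, was at 435, 387 and 483 CPM in HA and 11.3, 43.5 and 64.4 in IgG (a log2 fold change of 3.29 with SE 0.37, adjusted p 1.17e-05). H2-D1, a classical MHC class I chain, was at 3187, 4395 and 2375 CPM in HA and 896, 999.8 and 531 in IgG (a log2 fold change of 2.16 with SE 0.31, adjusted p 9.29e-05). S100a10, an annexin partner, was at 476, 706 and 772 CPM in HA and 216, 326 and 233 in IgG (a log2 fold change of 1.44 with SE 0.29, adjusted p 0.00151). Each was without overlap, and H2-D1 was highest in animal 3 in both pull-downs. The immunoproteasome subunit Psmb8 (1.53, adjusted p 0.00137) and Emp1 (1.68, adjusted p 0.00373) were higher as well. Gfap, S1pr3 and Cxcl10 counted in more than 1 list. In naive tissue 7 of 11 tested pan-reactive genes were higher in HA and 2 lower (median 1.52). Of 10 A1 genes 5 were higher and 1 lower there (0.17), and of 9 A2 genes 1 was higher and 2 lower (-0.65). Over all genes tested in naive tissue, 16% were higher and 14.4% lower. A difference between the times was called for 1 of 12 pan-reactive, 0 of 10 A1 and 1 of 11 A2 genes.

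Most tested genes of sterol and lysosomal metabolism were higher in HA, beside 11.8% of all genes tested. Of 13 tested genes of cholesterol synthesis and uptake, 11 were higher and 0 lower, with a median log2 fold change of 1.51 and medians within animals of 1.50, 1.63 and 1.59. Hmgcs1, which makes HMG-CoA (chromosome 13, 119690379 to 119708260), was at 638, 554 and 577 CPM in HA and 159, 152 and 177 in IgG (a log2 fold change of 1.92 with SE 0.28, adjusted p 9.66e-05). Its HA values were even across the animals and each exceeded the IgG values. Fdps, which makes farnesyl diphosphate, was also higher (1.51, adjusted p 0.0019). Of 18 lysosomal genes 13 were higher and 0 lower (median 1.19). Scarb2, which carries glucocerebrosidase to lysosomes, was at 473, 364 and 346 CPM in HA and 68.1, 109 and 24.1 in IgG (a log2 fold change of 2.90 with SE 0.39, adjusted p 5.71e-05), and Lamp1, the main lysosomal membrane protein, at 2451, 2541 and 2064 CPM in HA against 874, 1011 and 567 in IgG (a log2 fold change of 1.65 with SE 0.27, adjusted p 0.000332). The sterol count was 5, 6 and 5 of 10 tested without HA animals 1, 3 and 4 and 6 of 16 without IgG animal 4, with medians of 1.49 to 1.60 there. The lysosomal count was 8 of 16 without HA animal 1 or 3 and 5 of 11 with HA counts thinned to the IgG depth.

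Of 13 basement membrane genes 3 were higher and 4 lower, against 11.8% and 10.2% of all genes tested. Their median was 0.27, but it ranged from -0.14 without IgG animal 4 to 0.74 without IgG animal 3, and was 0.71, -0.27 and 0.42 for the log2 ratios within animals 1, 3 and 4. Dag1, the laminin receptor dystroglycan, was at 537, 603 and 481 CPM in HA and 159, 174 and 52.3 in IgG (a log2 fold change of 2.34 with SE 0.35, adjusted p 0.000159), and Agrn, the proteoglycan agrin, was higher by 1.78 on the log2 scale (adjusted p 0.0019). Col4a1, a chain of the network-forming collagen IV, was lower, at 341, 467 and 332 CPM in HA and 1044, 1348 and 929 in IgG (a log2 fold change of -1.43 with SE 0.26, adjusted p 0.000789).

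Few genes of translation and respiration were called, beside 11.8% higher and 10.2% lower over all genes tested, and the counts depended on the libraries. Of 76 ribosomal protein genes 2 were higher and 3 lower (median -0.06), of 74 nuclear-encoded respiratory chain genes 3 were higher and 2 lower (median 0.13), and of 50 translation factor genes 2 were higher and 3 lower (median -0.18). Ribosomal protein genes summed to 113390 CPM in IgG animal 4 and to 71571 and 75330 CPM in IgG animals 1 and 3, against 76650 to 80107 CPM in HA. Their median log2 ratio was 0.19, 0.29 and -0.46 within animals 1, 3 and 4. In the fits it was -0.44 with only IgG animal 4, when 24 were lower, and 0.39 without it, when 11 were higher and 0 lower. Of the respiratory chain genes 16 were higher when all 12 libraries were fitted together. The median of the respiratory chain list turned to -0.16 when HA counts were thinned to the IgG depth, and that of the translation factors to 0.05 without a filter and to 0.20 without IgG animal 3. Of 6 tested long noncoding RNAs 3 were lower and 0 higher (median -1.15). They were Meg3 and Neat1, which stay largely in the nucleus, and Gas5, a host of small nucleolar RNAs that is found in the cytoplasm. Meg3 (chromosome 12, 109541001 to 109571726) was at 11.5, 12.7 and 12.5 CPM in HA and 34.0, 185 and 249 in IgG (a log2 fold change of -3.73 with SE 0.45, adjusted p 2.83e-05). Neat1, the scaffold of paraspeckles, was at 4.91, 15.4 and 14.8 CPM in HA and 68.1, 65.2 and 294 in IgG (a log2 fold change of -3.75 with SE 0.55, adjusted p 0.000296). Both were low in HA and varied widely in IgG, with the highest value in animal 4, and Meg3 had an adjusted p of 0.0794 when all 12 libraries were fitted together. Gas5 was at 139, 142 and 138 CPM in HA and 272, 304 and 318 in IgG (a log2 fold change of -1.02 with SE 0.25, adjusted p 0.00677), and it was not called without IgG animal 4 (adjusted p 0.0989) or without a filter (0.0534).

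The HA to IgG comparison 3 h after manipulation was set beside the same comparison in naive animals, which shares no library with it. At T0, 2980 of 9823 genes were called (30.3%), 1568 higher and 1412 lower, and with the animal as a block 3807 were called, 1862 higher and 1945 lower. In the fits without the block, of the 1533 T3 calls that were tested at T0, 1033 (67.4%) were called in the same direction there, which is 45.0% of the 2297 T0 calls tested at T3. The share was larger for genes higher in HA, 626 of 824, than for genes lower in HA, 407 of 709, without a test of that difference. The log2 fold changes of 7095 genes had a Pearson correlation of 0.75 and a Spearman correlation of 0.72 across genes, which are not independent replicates. In 3 genes the calls were opposite, with Hspb1 (log2 fold change 1.18 at T3 and -0.65 at T0), Id3 (1.57 and -0.69) and Snx10 (2.02 and -1.25) higher in HA at T3 and lower at T0. The spread was larger at T3, where the median SE was 0.45 against 0.32 at T0, alongside the lower counts.

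A test of the difference itself, the interaction of antibody and time over all 12 libraries, called 34 of 10314 genes (0.33%), 31 of them (0.301%) with a larger HA to IgG difference at T3 and 3 (0.0291%) with a smaller one. With the animal as a block it called 158. The difference comes from this joint fit with its own scaling, so it need not equal the gap between the fold changes of the separate fits. Without single libraries the count was 95 for IgG T3 animal 4 and 13 for IgG T3 animal 3, 19, 16 and 5 for HA T3 animals 1, 3 and 4, 8 and 7 for HA T0 animals 2 and 4, and 21 and 13 for IgG T0 animals 2 and 4. Ezr, ezrin, which links membrane and actin cytoskeleton (chromosome 17, 6738041 to 6782784), was at 413, 398 and 554 CPM in HA and 102, 141 and 145 in IgG at T3 (a log2 fold change of 1.86 with SE 0.30, adjusted p 0.000216), and its log2 fold change at T0 was -0.55 (difference 2.66, SE 0.36, adjusted p 0.000716). For Srxn1 the log2 fold change was 3.12 at T3 and 0.62 at T0 (difference 2.79, SE 0.39, adjusted p 0.000716), and for Cryab 2.88 and 0.90 (difference 2.25, SE 0.33, adjusted p 0.00112). Id3, an inhibitor of helix-loop-helix factors, and Frmd4a, a scaffold protein of cell polarity, also gained (2.51 and 2.69, adjusted p 0.00112 and 0.00234). These 5 remained past the threshold in all 18 alternatives.

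The 3 genes with a smaller difference at T3 included a marker of Cajal cells. Kit had a log2 fold change of 1.31 at T3 and 3.64 at T0 (difference -2.06, SE 0.44, adjusted p 0.0358), and its mean level in IgG was 181 CPM at T3 and 76.9 at T0, against 374 and 971 CPM in HA. Adgrd1, an adhesion G protein-coupled receptor, had 1.32 and 4.00 (difference -2.40, SE 0.48, adjusted p 0.0261). Crispld2, a secreted protein, had -0.38 and 1.44 (difference -1.56, SE 0.35, adjusted p 0.0488). Of 18 alternatives, the calls were lost in 8 for Kit, all of them fits without a single library (adjusted p up to 0.148), in 8 for Adgrd1 (up to 0.112) and in 11 for Crispld2 (up to 0.158), and HA T3 animals 3 and 4, IgG T3 animal 3, HA T0 animals 2 and 4 and IgG T0 animal 4 were each needed for all 3. Of the lists, the ribosomal proteins had a median of -0.06 at T3 and -0.62 at T0, where 36 of 77 were called lower, yet 0 of 77 had a called difference between the times. The sterol list had 7 of 15 genes called higher at T0 (median 0.71), and Hmgcs1 was its 1 gene with a called difference (1.92 at T3 and 0.24 at T0, adjusted p 0.0156), which was lost without HA T3 animal 4.

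**Figure D5:**
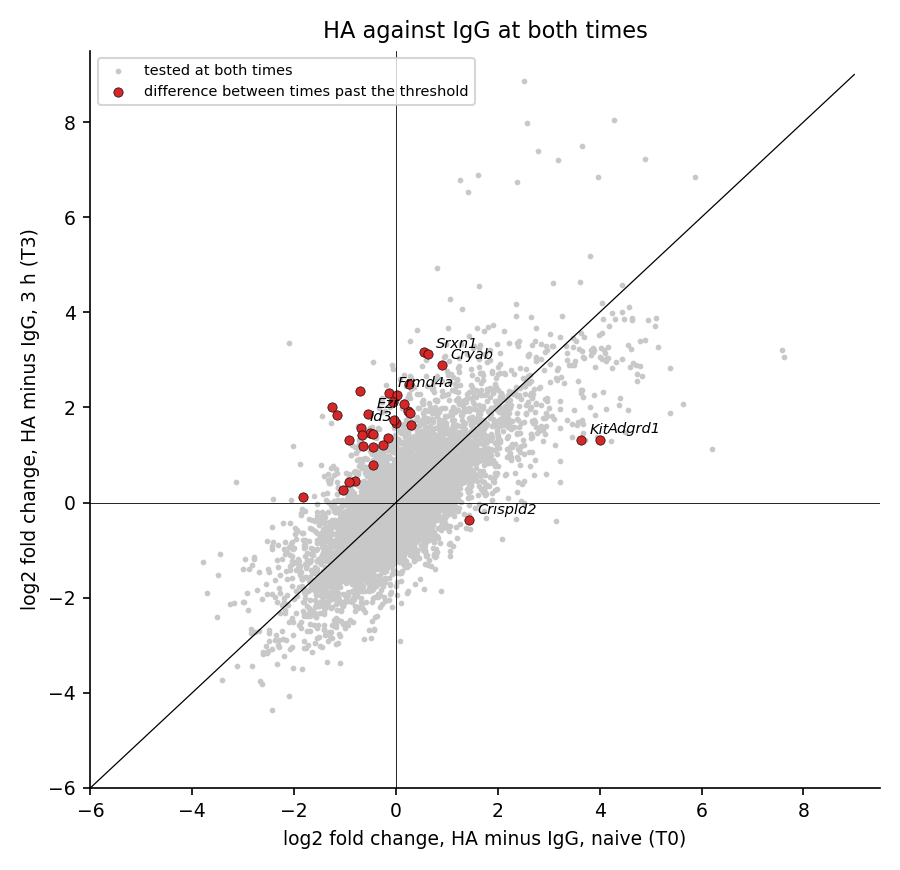
Log2 fold change of HA over IgG in naive tissue on the x axis and 3 h after manipulation on the y axis, with 1 point per gene tested at both times, red points for genes whose difference between the times passed the threshold and the diagonal of equal values. Most genes lie along the diagonal, Ezr, Srxn1, Id3, Cryab and Frmd4a lie above it, and Kit, Adgrd1 and Crispld2 lie below it.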

How the data were processed

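The tissue was small intestinal muscularis of mice, and each library was a bulk 3′ MARS-seq library of RNA from an anti-HA or a mouse IgG1 pull-down, of which up to 8 were pooled for sequencing by similar qPCR value. Which libraries shared a pool is not given in the sources used here, so the part of pooling in the HA to IgG differences was not tested. The deposited values are counts of unique molecular identifiers per gene, which the authors made by trimming with cutadapt, uniquely mapping to mm10 with STAR 2.4.2a and counting with HTSeq reads from 1000 bases upstream to 100 bases downstream of annotated 3′ ends. Unique mapping lowers genes with close paralogs, the strand setting is not given in the sources used here, and no mitochondrially encoded gene was analysed here. Intervals and floors cover counting error only.

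Counts were tested with edgeR 4.0.16 (R 4.3.3, TMM scaling, filterByExpr, robust quasi-likelihood fit, Benjamini-Hochberg adjustment, threshold 0.05) over the 6 T3 libraries, 3 HA against 3 IgG and without a block, and likewise at T0. The interaction was fitted over all 12 libraries. CPM values were computed here from the counts as deposited and the library totals. HA and IgG of 1 number came from 1 animal, and their deviations from the group means correlated at 0.20, 0.20 and 0.15 at T3 and at 0.28, 0.26 and 0.28 at T0, against at most 0.02 for other pairs. The 3 animals of a group are separate. The p-values measure the spread between libraries of a group, as the main fit took HA and IgG of an animal as independent. They do not measure the spread of the difference within animals. The code was tested on simulated data.

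The comparison, the gene lists and the naming rule were chosen with earlier results of these data known. The rule names Rpl22, the glial list, the 12 genes per direction with the smallest p among called genes whose groups did not overlap and that changed by 1 log2 unit or more, up to 4 genes per list by p together with list members at 0 in IgG, the most abundant genes, up to 5 genes per direction of the interaction, up to 8 genes with 3 counts or fewer in each IgG library, and the secreted factors named by the study. Some genes that the rule covers are not reported singly. Sequence windows are from RefSeq (GRCm38.p6, 250 bases before to 50 after a gene's start), gene positions are from Gencode M21 on the same build, and 5552 of 7200 tested genes matched a window.

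The alternatives were other scalings (DESeq2 size factors and total counts), other filters, the DESeq2 1.42.0 Wald test, the animal as a block, a minimum fold change, a fit of all 12 libraries, HA counts thinned to the IgG total of the same animal, and leaving out each library. Fits of the block with thinned counts and of the deepest IgG library alone were chosen after seeing the data.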

Additional observations from a re-analysis of the deposited data

Results flagged for a closer look

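The HA to IgG difference 3 h after manipulation differed from that in naive tissue for 34 genes, by the interaction of antibody and time in edgeR over 12 libraries of 6 animals. The differences in log2 fold change between the times were 2.66 for Ezr, 2.79 for Srxn1, 2.51 for Id3, 2.25 for Cryab and 2.69 for Frmd4a, and -2.40 for Adgrd1, -2.06 for Kit and -1.56 for Crispld2. The mean level of Srxn1 in HA was 2190 CPM at T3 and 82.3 CPM at T0, and in IgG it was 279 and 52.7 CPM, so the message was higher at T3 in both pull-downs. The mean level of Cryab was 5845 and 1281 CPM in HA and 862 and 672 CPM in IgG. For Kit and Adgrd1 the HA level was lower at T3 (374 against 971 CPM, and 520 against 1299 CPM) and the IgG level higher (181 against 76.9 CPM, and 246 against 79.4 CPM).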

How the results depend on the processing

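The count of genes called at T3 was 566 when HA counts were thinned to the IgG depth and 662 when the animal was also a block, with 1872 genes then tested. Of the original calls, 505 (32.0%) remained with thinned counts. Leaving out single libraries gave 849 to 1977 calls, and 833 (52.8%) and 831 (52.7%) of the original calls remained without HA animal 4 and IgG animal 4. The share of calls higher in HA was 53.6%, and it was 46.1% with total counts, 69.0% with all 12 libraries fitted together, 60.5% without a filter (2145 calls) and 66.1% without IgG animal 4. The median log2 fold change of all genes was then -0.08, 0.19, 0.17 and 0.14. With the animal as a block, 1608 genes were called at T3 and 1482 of the original calls (93.9%) remained. It ended the call of no named gene and changed no other call of those reported singly, except that S100a8 (adjusted p 0.000432) and Hdc (0.00948) gained one. DESeq2 called 1482 genes. In all 16 alternative fits 365 calls remained, 270 higher and 95 lower, and 112 of 150 named called genes kept their call in each alternative in which they were tested.

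For the difference between the times, the count was 20 with DESeq2 size factors, 8 with total counts, 80 with the DESeq2 Wald test and 158 with the animal as a replicate block, against 34, and 5 to 95 without single libraries. It was not run with thinned counts. The receptor median was -0.085 to 0.90 without single libraries and reached 2.44 with thinned counts and the block. The respiratory chain median turned to -0.16 with thinned counts and -0.15 with the block as well. The translation factor median turned to 0.054 without a filter and 0.050 with all 12 libraries fitted together, and was -0.12 to 0.20 without single libraries. The cause of these changes was not tested, and fewer genes were tested with thinned counts.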

Other observations

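Among the remaining genes with a called difference between the times, several belong to the fixed lists or to nerve repair, and they were picked after their values were seen. None of the 4 named here was called without HA T3 animal 4, when only 5 genes were. Gdnf, the neurotrophic factor, had a mean level of 282 CPM in HA and 58.0 CPM in IgG at T3, and of 15.1 and 11.8 CPM at T0 (difference in log2 fold change 2.49, SE 0.51, edgeR adjusted p 0.0219). Gap43 was at 295 CPM in HA and 132 CPM in IgG at T3, and at 127 and 171 CPM at T0 (difference 1.86, SE 0.36, adjusted p 0.0156). Sox4, a transcription factor of progenitor cells, was at 699.8 CPM in HA and 272 CPM in IgG at T3, and at 66.0 and 104 CPM at T0 (difference 2.34, SE 0.44, adjusted p 0.0156). All 3 had a higher mean in HA than in IgG at T3, while Gap43 and Sox4 had the lower mean in HA at T0. The small heat shock protein gene Hspb1 had the same order, with 2219 and 1031 CPM at T3 against 812 and 1258 CPM at T0 (difference 2.07, SE 0.39, adjusted p 0.0156).

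The muscle-type and testis-type subunits of cytochrome oxidase were the respiratory chain genes with the smallest p-values. Cox7a1 was at 149, 109 and 148 CPM in the HA libraries of animals 1, 3 and 4 and at 11.3, 76.1 and 28.2 CPM in IgG (a log2 fold change of 2.00 with SE 0.43, edgeR adjusted p 0.00265). Cox6b2 was at 72.0, 68.9 and 72.4 CPM in HA and at 0, 21.7 and 16.1 CPM in IgG (2.41 with SE 0.53, adjusted p 0.00317). In naive tissue their log2 fold changes were 1.71 and 1.94. At T3 the IgG values of Cox7a1 in animal 1 and of Cox6b2 in animals 1 and 3 were under 3 counts. That number corresponds to 34.0 and 32.6 CPM in IgG animals 1 and 3, so the sizes rest on few IgG counts.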
